A study of Mus musculus with 6 samples.

Results

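The comparison described here set KO M1(LPS + IFN-γ) macrophages against unstimulated KO M0 macrophages, on 4 of the 6 arrays of the study. The cells were bone marrow-derived macrophages (BMDM) of 2 mice that lack miR-155, a microRNA that is induced by inflammatory stimuli. Both groups therefore carried the same deletion, the allele Mir155tm1.1Rsky on the C57BL/6J background, and no wild-type array was analysed here. The marrow cells were grown in medium with L929 cell supernatant, a source of macrophage colony stimulating factor, and then replated without it. KO M1 cells received LPS, which the sample labels put at 100 ng/ml and the methods at another dose, together with IFN-γ at 20 ng/ml. KO M0 cells received medium alone, and both were harvested at 24 hours. The remaining 2 arrays, of KO M2(IL-4) cells stimulated with IL-4 at 20 ng/ml, served to estimate the spread and are quoted beside KO M0 where stated. Each condition had 2 arrays, numbered 1 and 2 in the labels, and an array number is read here as the mouse, which no label states outright. Neither the age nor the sex of the mice was stated. Every mean below therefore has n = 2 mice.

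LPS is a component of the outer membrane of Gram-negative bacteria that macrophages sense through TLR4, whose adaptors switch on NF-kB and the interferon regulatory factors. IFN-γ acts through its own receptor and the kinases JAK1 and JAK2, and the pair of signals is the classical way to obtain an inflammatory macrophage. Such cells secrete IL-1 and chemokines, present antigen, make antimicrobial proteins and stop dividing, while genes of tissue repair and of the uptake of apoptotic cells decline.

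Values are intensities per probe set, the array's measure of transcript abundance, and a gene is given by its brightest probe set unless stated otherwise. A change is the mean log2 intensity of KO M1 minus that of KO M0, given with its SE. Adjusted p-values come from limma fitted over all 45037 probe sets. A gene is said to have risen or fallen where its adjusted p was under 0.05. Unless stated otherwise, single genes named as risen or fallen also passed with any 1 of the 6 arrays left out and with the mouse as a block. In a bulk culture, fewer expressing cells and less RNA per cell cannot be told apart.

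The arrays had median intensities between 37.91 and 40.82. The probe set annotated to the host transcript of miR-155 read 10.8 and 9.94 on the KO M0 and 10.5 and 9.42 on the KO M1 arrays, at the low end of the scale, but its place relative to the deleted sequence is not known here, so it does not check the genotype. The 2 KO M0 arrays correlated at 0.9962 over probe sets and had 49 probe sets over 2-fold apart. The KO M1 arrays correlated at 0.9921 and had 433 such probe sets, a difference between the mice that is described last. Defining macrophage genes were high in every array. Csf1r, the receptor of macrophage colony stimulating factor, read 14445 and 13936 before and 15016 and 15214 after stimulation, and Emr1, which encodes F4/80, read 8930 and 10633 against 13297 and 12264. Of 21 macrophage identity genes 5 rose (0 to 5 with 1 array left out, 0 without KO M0 of mouse 1) and 1 fell. Among 13 neutrophil markers Lcn2, S100a8 and Csf3r were called higher, and the calls of S100a8 and Csf3r were lost when 1 array was left out. The summed intensity of the list went from 1373 and 1500 to 10888 and 9065. Most of that rise was Lcn2 alone, which went from 67.2 and 232 to 8770 and 6964. Mpo, Elane, Prtn3, Ltf, Camp, Ngp and Cxcr2, further markers of that list, lay between 16.7 and 68.5 on all 4 arrays and were not called. S100a9, also of that list, read 35.9 and 38.6 in KO M0 against 126 and 32.6 in KO M1 and was not called either. The part of neutrophils in the rises was not tested. None of 10 B cell, 13 T and NK cell or 9 erythroid markers was called, and Hdc, Dcn and Ccr7 were the single genes called higher among the mast cell, fibroblast and dendritic cell markers, each with an adjusted p above 0.2 in at least 1 fit that left out an array. Of 8 endothelial markers Vwf, von Willebrand factor, fell from 239 and 230 to 35.2 and 46.6 (fell by 2.53), and Kdr was called higher but lost the call when 1 array was left out (adjusted p up to 0.26).

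In all, 450 probe sets rose and 856 fell with LPS + IFN-γ at a fold of at least 2, which are 0.999% and 1.9% of those tested. They named 310 genes that were higher and 558 that were lower, and no gene stood on both sides. At a fold of at least 4 there were 80 and 131 genes, and at a fold of at least 16 there were 12 and 8. The count of higher probe sets depended on arrays of both mice, since it was larger without KO M1 of mouse 2 and smaller without KO M0 of mouse 1. By their brightest probe sets and with no fold threshold, 794 of 20967 genes (3.79%) rose and 941 (4.49%) fell. Among the 8947 genes with a mean intensity of at least 100, these shares were 6.99% and 7.95%. The median change over all genes was 0.05. The 1172 genes in 47 lists by function held 170 that rose and 207 that fell. The cell cycle lists and the S100 and annexin genes lay on the falling side. Schlafen, antimicrobial, chemokine and feedback inhibitor genes lay on the rising side. Members and lists were chosen with earlier results of these data known, so an excess over the shares of all genes may follow from that choice.

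**Figure D1:**
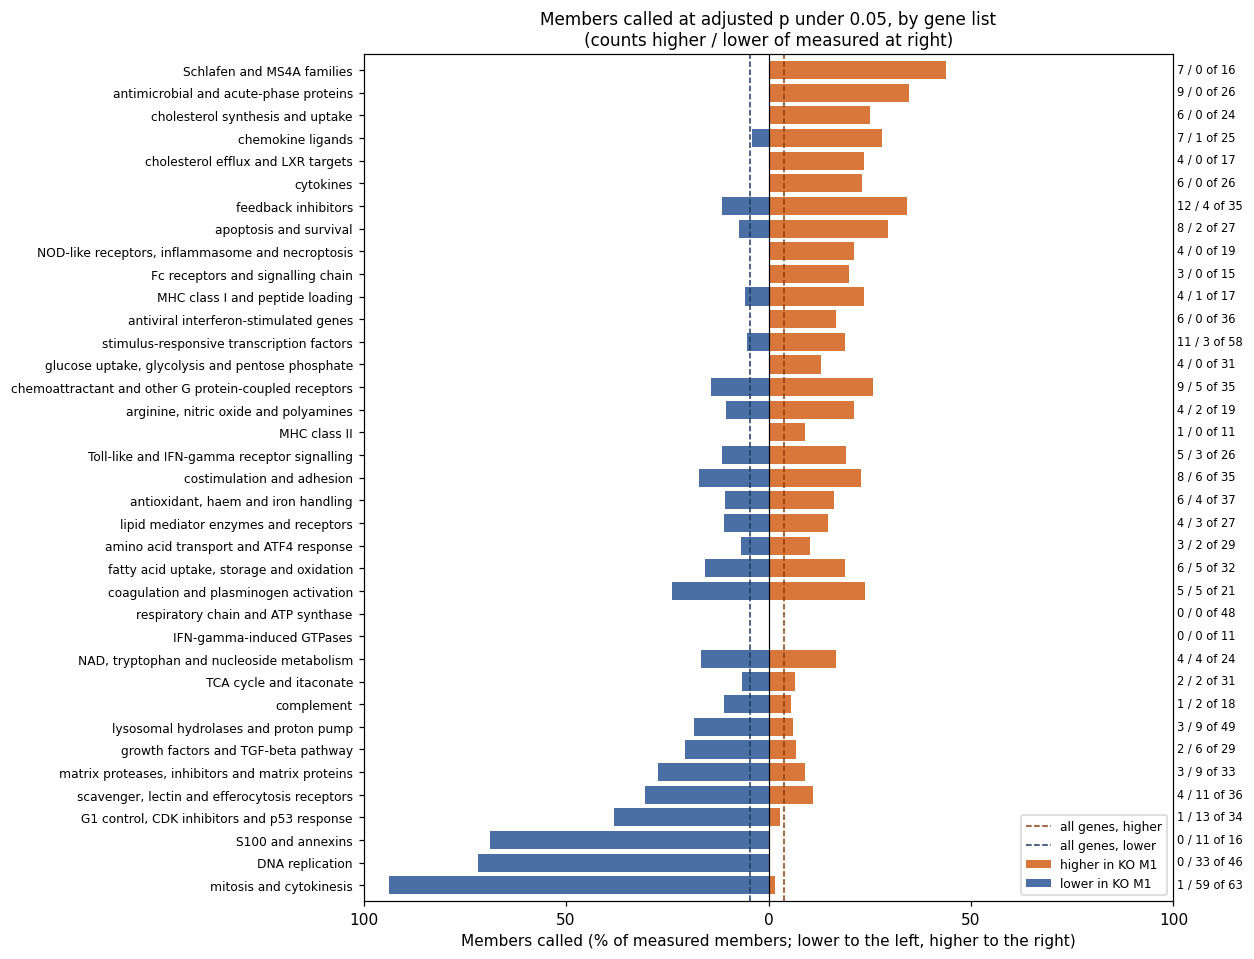
Bars show the percent of measured members of each gene list called higher (right, orange) or lower (left, blue) after stimulation at an adjusted p under 0.05, with the counts at the right edge and the shares over all genes (3.79% and 4.49%) as dashed lines. Of 63 mitosis genes 59 were lower, while none of 48 respiratory chain genes and none of 11 IFN-γ-induced GTPases was called.

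Chemokine and cytokine genes were among those with the largest rises. Cxcl9, an IFN-γ-induced ligand of CXCR3 that draws T cells, read 37.6 and 38.1 in unstimulated cells, against 4229 and 2728 in KO M1. It rose by 6.49 ± 0.22 on the log2 scale, a fold of 89.7 (adjusted p = 1.7e-05), and was the gene with the largest rise. Both KO M1 values lay far above both KO M0 values. Il1b, the main secreted IL-1, went from 108 and 127 to 3522 and 5747, a fold of 38.5 (5.27 ± 0.21, adjusted p = 2.1e-05). Il1a, its cell-bound relative, went from 26.5 and 25 to 260 and 263 (3.34 ± 0.12). Their antagonist Il1rn rose less, from 517 and 476 to 1682 and 2261 (1.97 ± 0.17), so that the agonists and the inhibitor of the same receptor all increased. Of 25 chemokine ligands 7 rose and 1, Cxcl14, fell (166 and 151 to 56.5 and 78.1), while 4 and 5 fell when the mouse 1 or the mouse 2 array of KO M1 was omitted. Ccl5, a chemokine for T cells and monocytes that was already bright at 6279 and 7619, reached 21017 and 19837, a fold of 2.95. Ccl8 went from 200 and 180 to 1081 and 1035 (2.48 ± 0.24). Cxcl13, the B cell attractant, which is outside that list, read 52.8 and 45.9 against 354 and 213 by its brightest probe set (2.48 ± 0.22), and 14.9 and 12.3 against 598 and 238 by a second one (4.8 ± 0.35, between 4.14 and 5.47 without either KO M1 array). Cxcl11, the second CXCR3 ligand, rose by 4.44 ± 0.63 from 25 and 22.7, but its KO M1 values of 1232 and 217 stood apart and the change was 3.19 without KO M1 of mouse 1 and 5.69 without that of mouse 2.

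Ebi3, a subunit shared by IL-27 and IL-35, rose from 1741 and 1874 to 3706 and 3821 (1.06 ± 0.13), and Tnfsf9, the ligand of 4-1BB, from 103 and 117 to 245 and 233 (1.12 ± 0.13). In all 6 of 26 cytokine genes rose and none fell (13 rose without KO M1 of mouse 2, and 2 fell without that of mouse 1). Several genes that are widely used to mark this stimulus did not pass the test. Nos2, the inducible nitric oxide synthase, read 36.8 and 38.8 before and 51.6 and 43.7 after stimulation, close to the median of the arrays (0.33 ± 0.17, adjusted p = 0.32). Il12b read 18 and 13.9 against 18.9 and 23.4. Il6 was at 9.42 and 11.6 in KO M0 and at 59.0 and 24.4 in KO M1 (1.86 ± 0.58, adjusted p = 0.1). Tnf read 180 and 207 against 565 and 166, so that only the array of mouse 1 was above KO M0 (0.67 ± 0.45). Thus Il12b lay at the low end and Nos2 near the median in both groups, whereas Il6 and Tnf were higher in 1 KO M1 array than in the other.

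Among 26 antimicrobial and acute-phase genes 9 rose and none fell (5 without either KO M0 array). Lcn2, which binds bacterial siderophores and so withholds iron, went from 67.2 and 232 to 8770 and 6964, a fold of 62.6 (5.97 ± 0.46, adjusted p = 0.00021). The unstimulated cells of mouse 2 already had more of it, and the change was 5.07 without the mouse 1 array of KO M0 and 6.86 without that of mouse 2. Hp, haptoglobin, rose from 127 and 166 to 1503 and 1469 (3.36 ± 0.15). Saa3, the serum amyloid A gene of macrophages, rose from 4302 and 7795 to 22192 and 21480 (1.91 ± 0.25) and was among the brightest genes of KO M1. Ncf1, the p47 subunit of the phagocyte oxidase, rose by 0.92 ± 0.12. Cybb and Cyba of the membrane core changed by 0.43 and 0.08 and did not pass, though 1 of 3 probe sets of Cybb was called higher.

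Receptors for chemoattractants rose with them. Fpr1, which senses formyl peptides of bacteria, went from 208 and 388 to 5258 and 3360, a fold of 14.8 (3.89 ± 0.30). Fpr2, its relative with a broader range of ligands, went from 564 and 977 to 8651 and 7720 (3.46 ± 0.23). In each case the values of KO M0 and KO M1 did not overlap, and the KO M0 value of mouse 1 was the lowest. Gpr84, a receptor for medium-chain fatty acids, rose from 130 and 233 to 2092 and 1786 (3.47 ± 0.31). P2ry13, an ADP receptor, rose from 81.1 and 65 to 316 and 218 (1.86 ± 0.19). Gpr18 rose by 3.25 ± 0.36, with 2109 in KO M1 of mouse 1 and 837 in that of mouse 2 (2.58 without the former array and 3.92 without the latter). On the falling side Ccr3, the eotaxin receptor, went from 65.7 and 72.0 to 15.6 and 23.6 (fell by 1.84 ± 0.19). Of the 35 receptors tested 9 rose (6 without either KO M0 array and 6 with a mouse block) and 5 fell (1 and 2 without KO M0 of mouse 1 and mouse 2, 2 without KO M1 of mouse 1, and 2 with the block).

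**Figure D2:**
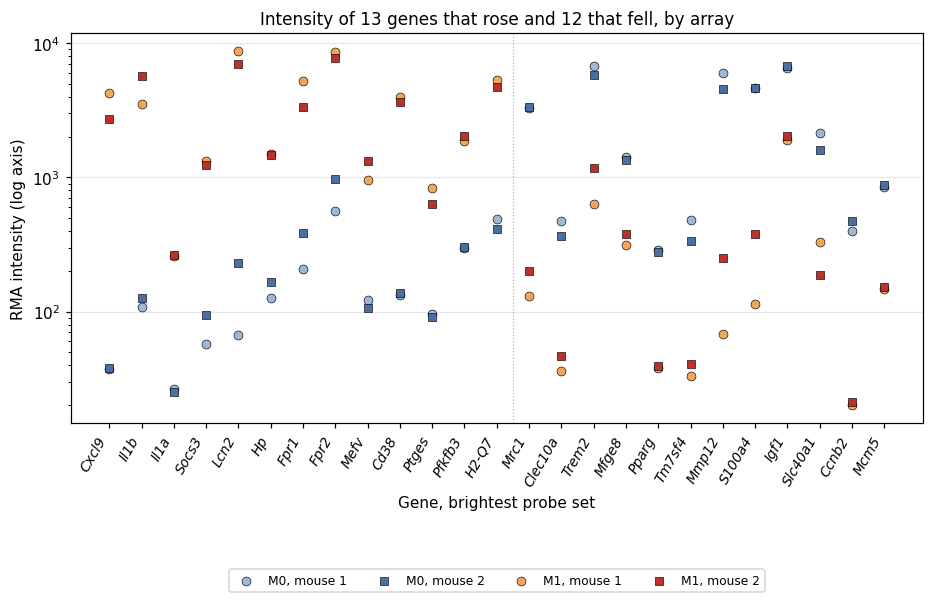
Each point is the RMA intensity (log axis) of a gene on 1 array, with KO M0 in blue, KO M1 in orange and red, circles for mouse 1 and squares for mouse 2; 13 genes that rose stand to the left of the dotted line and 12 that fell to the right. The 25 genes were picked from those that passed the test, so the distance between their KO M0 and KO M1 values follows from that choice. Examples are Cxcl9 (37.6 and 38.1 against 4229 and 2728) and Mrc1 (3268 and 3368 against 130 and 200).

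Genes that restrain the response were the list with the most rises by number, 12 of 35 (34.3%), though not by share (43.8% of the Schlafen and MS4A list), while 4 fell (1 without either KO M0 array). Socs3, an inhibitor of JAK and STAT signalling, went from 57.4 and 94.7 to 1333 and 1229, a fold of 17.4 (4.12 ± 0.21, adjusted p = 4.2e-05). A dimmer probe set of Socs3 gave 5.27 ± 0.37, between 4.56 and 5.99 without either KO M0 array. Irak3, which blocks the kinases below Toll-like receptors, rose from 336 and 472 to 2116 and 1596 (2.21 ± 0.19). Nfkbia, the inhibitor that holds NF-kB in the cytoplasm and is itself an NF-kB target, was already bright at 4189 and 4827 and reached 13612 and 11355 (1.47 ± 0.16). Tnfaip3, the deubiquitinase A20, rose from 553 and 611 to 1842 and 1356 (1.44 ± 0.16). Bcl3, Dusp1, Dusp16 and Tnip1 rose by 1.77, 1.33, 1.30 and 1.19. A different phosphatase of MAP kinases, Dusp4, fell from 151 and 155 to 27.8 and 54.5 (fell by 1.97 ± 0.26), so that members of the DUSP family moved in opposite directions. Socs1, the family member most tied to IFN-γ, changed by 1.57 and did not pass.

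Some promoters of this list held an NF-kB motif, searched by its usual consensus on both strands in the 300 bases around the RefSeq start sites of GRCm38.p6. It was found in 21.2% of 33 promoters, against 29.4% of 17 promoters of chemokine ligands and 4.5% of all 32851, and the STAT motif GAS, TTCNNNGAA, was also found in 21.2%, against 8.3%. Genes called higher at a fold of at least 2 had these motifs in 9.6% and 11.9% of 311 promoters, and genes called lower in 4.3% and 6.5% of 554. A match is a description of the letters and not a binding site. A window of each kind is shown for the 2 inhibitors described above, with the match in capitals.
Nfkbia, NF-kB (chr12:55492644-55492703, minus strand): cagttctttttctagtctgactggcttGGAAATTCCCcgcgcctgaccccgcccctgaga
Socs3, GAS (chr11:117969488-117969547, minus strand): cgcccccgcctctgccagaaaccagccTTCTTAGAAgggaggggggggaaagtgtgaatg

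Transcription factors of the inflammatory programme rose modestly. Nfkb2 and Relb, the pair of the noncanonical NF-kB pathway, went from 275 and 345 to 949 and 820 (1.52 ± 0.15) and from 283 and 318 to 615 and 719 (1.15 ± 0.14). Cebpb rose from 1241 and 1673 to 4069 and 3970 (1.48 ± 0.16). Junb rose by 1.13 ± 0.12 and Batf by 1.97 ± 0.26, and together with them 11 of 58 factors rose (5 and 6 without KO M0 of mouse 1 and mouse 2). The fall of Pparg, the nuclear receptor of lipid handling and of IL-4 responses, was among the most even between mice, from 289 and 280 to 37.7 and 39.4, a fold of 7.38 (fell by 2.88 ± 0.12, adjusted p = 2.1e-05). Myc, a driver of growth and division, fell from 249 and 241 to 55.4 and 71.1 (fell by 1.96 ± 0.18). Irf1, a factor induced by IFN-γ, changed by 0.67 and did not pass, with 1856 in KO M1 of mouse 1 and 1063 in that of mouse 2.

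Of the sensors and their kinases, Tlr2, which binds bacterial lipoproteins, rose from 676 and 786 to 1881 and 2388 (1.54 ± 0.19), and Jak2, a kinase of the IFN-γ receptor, from 325 and 322 to 1528 and 1039 (1.96 ± 0.18). Tlr4 itself was called lower, at 442 and 473 against 279 and 249, but lost the call when 1 array was left out (adjusted p up to 0.079). Mefv, which encodes the inflammasome sensor pyrin, stood out among 19 genes of inflammasomes and necroptosis, with 122 and 106 before against 954 and 1320 after stimulation (3.30 ± 0.18). Nlrp3 and Casp1 changed by 0.46 and -0.14 and did not pass, and 4 genes of that list rose (1 and 2 without KO M0 of mouse 1 and mouse 2, 10 without KO M1 of mouse 2).

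Genes of apoptosis and survival moved in both directions. Traf1 went from 30.6 and 53.5 to 388 and 216 (2.84 ± 0.33), Ier3 from 532 and 637 to 1860 and 2387 (1.86 ± 0.16) and the ubiquitin ligase Birc3 from 511 and 588 to 2075 and 1389 (1.63 ± 0.19). The receptor Tnfrsf1b, TNFR2, rose by 1.40 ± 0.15. Of 27 genes 8 rose and 2 fell (4 and 5 rose, and none fell, without KO M0 of mouse 1 and mouse 2). These calls include the death genes Fas and Bak1, both at 0.68, and the survival gene Bcl2 at -1.16, which lost the call when 1 array was left out (adjusted p up to 0.25, 0.15 and 0.24). Members of the Schlafen and MS4A families, which are known for expression in immune cells, rose in 7 of 16 cases and fell in none (3 without either KO M0 array and 4 without either KO M2 array). Slfn4 went from 92.7 and 112 to 3575 and 1022 (4.23 ± 0.47, 3.33 without KO M1 of mouse 1 and 5.13 without that of mouse 2), Slfn1 from 169 and 101 to 2033 and 940 (3.41 ± 0.35), and Ms4a4c from 1611 and 1227 to 10480 and 6932 (2.60 ± 0.24). In all 3 genes the array of mouse 1 was the higher of the KO M1 pair.

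Of 17 genes of MHC class I and peptide loading 4 were called higher and 1 lower. These are 23.5% and 5.9%, against 3.79% and 4.49% over all genes. The calls of Tap2 (0.89), Psmb9 (0.68) and Pdia3 (-0.63) were lost when 1 array was left out. H2-Q7, one of several closely similar class Ib genes whose transcripts a probe set may not separate, went from 490 and 415 to 5315 and 4759, a fold of 11.2 (3.48 ± 0.16). Tap1, a subunit of the peptide transporter, rose from 1472 and 1358 to 3700 and 2782 (1.18 ± 0.16). The classical class I genes H2-K1 and H2-D1 and B2m changed by 0.21, 0.16 and 0.06 and did not pass. In class II, H2-Ab1 rose from 934 and 543 to 2411 and 2308 (1.73 ± 0.23) as the single call among 11 genes, and Ciita, the class II activator, read 29.2 and 24.8 against 19.3 and 28.6. Cd274, which encodes PD-L1, rose from 895 and 1051 to 4588 and 2671 (1.85 ± 0.23). Itgal, a chain of the integrin LFA-1, rose from 880 and 1442 to 4471 and 3521 (1.82 ± 0.23) and Itga5, a fibronectin receptor chain, from 140 and 150 to 372 and 377 (1.37 ± 0.12). Cd83, a maturation marker, instead fell from 608 and 484 to 108 and 108 (fell by 2.33 ± 0.16). The tetraspanin Cd9 fell from 5071 and 4413 to 468 and 1064 (fell by 2.74 ± 0.31, with -2.15 without the mouse 1 array of KO M1 and -3.34 without that of mouse 2), and Cd200r1, an inhibitory receptor, by 1.37 ± 0.14. Costimulation and adhesion genes as a list were thus divided, with 8 of 35 higher (5 without the mouse 1 array of KO M0, 13 without the mouse 2 array of KO M1) and 6 lower. The Src family kinase Fgr and the inhibitory Fc receptor Fcgr2b rose by 1.71 ± 0.19 and 1.13 ± 0.15.

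Lectins, scavenger receptors and proteins that bridge apoptotic cells to phagocytes fell in 11 of 36 cases and rose in 4 (7 fell without either KO M0 array, and 7 rose without KO M1 of mouse 2). Mrc1, the mannose receptor, went from 3268 and 3368 to 130 and 200, a fold of 20.6 (fell by 4.36 ± 0.19, adjusted p = 3.1e-05). Clec10a, a galactose-type lectin, went from 474 and 369 to 36.2 and 46.7 (fell by 3.35 ± 0.19), and Clec7a, the beta-glucan receptor dectin-1, from 5760 and 4466 to 300 and 831 (fell by 3.34 ± 0.38, with -2.61 without KO M1 of mouse 1 and -4.08 without that of mouse 2). Trem2, a receptor for lipids and apoptotic cells, went from 6752 and 5836 to 631 and 1171 (fell by 2.87 ± 0.25). Mfge8 and Gas6, which coat apoptotic cells, fell from 1432 and 1352 to 312 and 376 (by 2.02 ± 0.14) and from 2734 and 2137 to 561 and 702 (by 1.94 ± 0.21). The receptors of Gas6 did not follow, since Axl and Mertk changed by 0.06 and 0.55 and did not pass. Cd36 was called lower, at 7388 and 7386 against 594 and 2295, but its adjusted p reached 0.11 with 1 array left out, and its change of -2.66 was -1.69 without KO M1 of mouse 1 and -3.64 without that of mouse 2. The rises lay in other receptors: Clec4e, the mycobacterial glycolipid receptor Mincle, went from 576 and 1028 to 6866 and 5156 (2.95 ± 0.38), Cd300lf from 369 and 362 to 1084 and 1294 (1.70 ± 0.13), and the paired receptors Pilrb1 and Pilra rose by 1.59 and 1.39. Members of 1 family of pattern receptors, the C-type lectins, therefore stood at both ends. Among complement genes C5ar1, the C5a receptor, fell from 3593 and 3562 to 1762 and 1881 (fell by 0.97 ± 0.12).

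Genes known from fusing macrophages, osteoclasts and tissue remodelling included the largest falls, but they did not fall as a whole. Of 18 fusion and osteoclast markers 7 were called lower and 2 higher, with a median change of -0.11. These are 38.9% and 11.1%, against 4.49% and 3.79% over all genes. Cd200 rose by 1.2, and Acp5 was called higher at 1.39, a call that was lost when 1 array was left out. Atp6v0d2, a subunit of the proton pump that is enriched in osteoclasts, went from 4221 and 3045 to 43.5 and 160, a fold of 43.0 (fell by 5.43 ± 0.48), and Mmp12, the macrophage elastase, from 6012 and 4578 to 68.6 and 251 (fell by 5.32 ± 0.48). In both the array of mouse 1 was the lower of the KO M1 pair. Without KO M1 of mouse 1 the changes were -4.49 and -4.39, and without that of mouse 2 they were -6.36 and -6.26. Mmp9 followed the same pattern, from 1059 and 1321 to 42.9 and 172 (fell by 3.78 ± 0.51, with -2.78 and -4.79 without these arrays). Tm7sf4, the fusion protein DC-STAMP, fell from 483 and 334 to 33.4 and 40.8 (fell by 3.44 ± 0.19). Timp2, an inhibitor of metalloproteinases, fell by 1.5 ± 0.18. Not all remodelling genes went down: Mmp14, a membrane-bound metalloproteinase, rose from 805 and 767 to 3245 and 3534 (2.11 ± 0.17) and Tgfbi, a matrix protein, from 871 and 1646 to 7249 and 10566 (2.87 ± 0.28). The list of lysosomal hydrolases and the proton pump had a median change of -0.13. In it 18.4% were called lower and 6.1% higher, against 4.49% and 3.79% over all genes. Atp6v0a1 and the acid lipase Lipa fell (-1.39 ± 0.14 and -1.31 ± 0.13), the phosphatase Acp2 rose by 0.99 ± 0.12, and the membrane proteins Lamp1 and Lamp2 changed by -0.01 and -0.05. Of 49 lysosomal genes 3 rose and 9 fell (1 and 3 without either KO M0 array, 5 fell without KO M1 of mouse 1, and 6 fell with the mouse as a block).

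In the list of calcium-binding S100 proteins and annexins 11 of 16 measured genes fell and none rose, with a median change of -0.69. Fewer fell without either KO M0 array. S100a8 and S100a9 stood in the antimicrobial list instead. There S100a8 was called higher, from 91.0 and 72.3 to 293 and 164 (1.44 ± 0.26), but lost the call when 1 array was left out. S100a9 read 35.9 and 38.6 against 126 and 32.6 and did not pass. S100a4, linked to cell motility, went from 4649 and 4665 to 114 and 380, a fold of 22.3 (fell by 4.48 ± 0.44, with -3.61 without the mouse 1 array of KO M1 and -5.35 without that of mouse 2). S100a10 and its partner Anxa2, which assemble on the plasma membrane and bind plasminogen, read 2998 and 3080 against 996 and 1391 (fell by 1.37 ± 0.16) and 9238 and 8543 against 4801 and 5954 (fell by 0.73 ± 0.14, adjusted p up to 0.15 with 1 array left out). Anxa1, which dampens neutrophil recruitment, fell from 13186 and 12571 to 5018 and 6318 (fell by 1.19 ± 0.14), and Anxa3 and S100a1 fell too (-1.35 and -1.55). Genes of coagulation and plasminogen were divided, 5 up and 5 down of 21 (2 and 3 up without KO M0 of mouse 1 and mouse 2, and 3 down with a mouse block). Serpinb2, plasminogen activator inhibitor 2, rose from 6.67 and 14.6 to 111 and 226 (4.01 ± 0.44), and F10, coagulation factor X, from 131 and 109 to 566 and 771 (2.47 ± 0.21). The calls of Plau and Plaur, the plasminogen activator urokinase and its receptor, at -0.82 and -1.35, were lost when 1 array was left out (adjusted p up to 0.26 and 0.18), and 1 and 2 genes of this list fell without KO M0 of mouse 1 and mouse 2, 2 without the mouse 1 array of KO M1 and 3 without either KO M2 array.

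The falls of cell cycle genes were the most complete of any list. Of 63 genes of mitosis and cytokinesis 59 fell, 54 to 60 with 1 array left out, with a median change of -2.06. Ccnb2, a cyclin of the entry into mitosis, went from 402 and 474 to 20.1 and 21.1, a fold of 21.2 (fell by 4.41 ± 0.18, adjusted p = 2.1e-05). Ube2c, which works with the anaphase-promoting complex, went from 726 and 794 to 34.1 and 53.1 (fell by 4.16 ± 0.24). Birc5, survivin, of the chromosomal passenger complex, went from 559 and 578 to 25.1 and 45.5 (fell by 4.07 ± 0.29). They included regulators and structural proteins: the kinases Cdk1, Plk1, Aurka and Aurkb fell (log2 changes of -1.75, -2.13, -2.15 and -2.38), as did the kinetochore proteins Cenpa, Cenpf and Ndc80 (-3.03, -3.45 and -1.36), the motor Kif20a and the contractile ring protein Anln (-3.05 and -3.51), and the proliferation marker Mki67 (-2.65). Pttg1, securin, was the exception, with 2947 and 2552 before and 5768 and 4183 after stimulation (0.84 ± 0.17, adjusted p up to 0.17 with 1 array left out). Kif2c, Espl1 and Hmgb2 changed by -0.49, -0.68 and -0.54 and did not pass.

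DNA replication genes fell in 33 of 46 cases and rose in none (23 to 32 with 1 array left out), by less than the mitosis genes, with a median of -1.13. The 6 subunits of the MCM helicase fell, with changes between -2.51 and -1.27 and with Mcm5 going from 842 and 872 to 148 and 153. Rrm2, the small subunit of ribonucleotide reductase, went from 601 and 579 to 80.5 and 92.4 (fell by 2.77 ± 0.24), and Tk1, thymidine kinase, from 561 and 572 to 83.3 and 96.0 (fell by 2.66 ± 0.20). Pcna, the sliding clamp, kept a high level, at 9894 and 9712 against 4348 and 4007 (fell by 1.23 ± 0.13). On these probe sets the 2 mice lay close together, but a dimmer probe set of Rrm2 read 430 and 515 against 13.6 and 61.2 (-4.03 ± 0.58, between -5.11 and -2.94 without either KO M1 array, adjusted p up to 0.051 with 1 array left out). Tyms and Dnmt1 changed by 0.06 and -0.37 and did not pass. In the list of G1 control 13 of 34 genes fell (7 without either KO M0 array). Ccnd1, cyclin D1, the growth factor-driven cyclin, went from 2085 and 1910 to 354 and 244 (fell by 2.76 ± 0.18), Ccne2 fell by 2.43 ± 0.23, and E2f7 and E2f8, repressors that peak in S phase, fell too (-2.17 and -1.34). Of the inhibitors of cyclin-dependent kinases, Cdkn1a and Cdkn1b changed by 0.03 and 0.14 and did not pass, and Cdkn2c fell from 1081 and 1037 to 317 and 394 (fell by 1.58 ± 0.14).

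**Figure D3:**
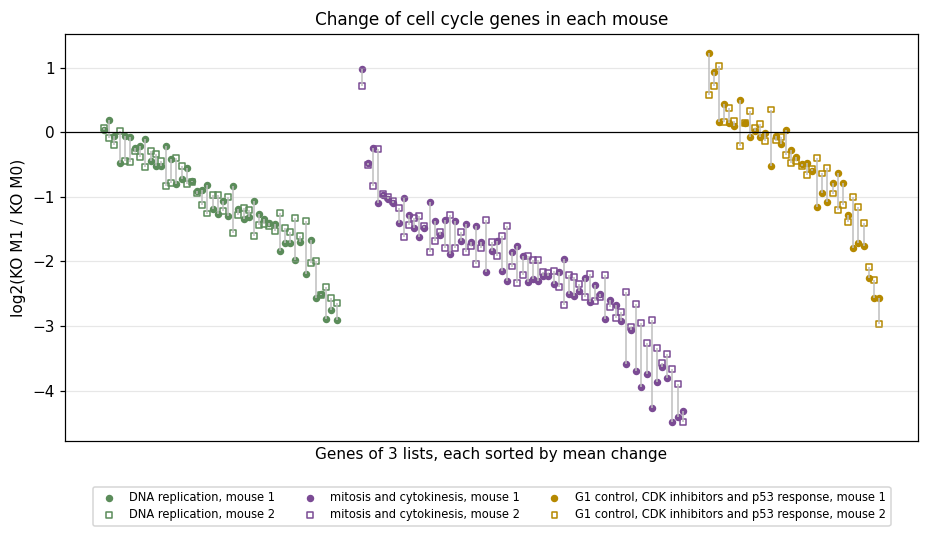
For each gene of the DNA replication, mitosis and G1 lists, the filled circle is the log2 ratio of KO M1 over KO M0 in mouse 1 and the open square that in mouse 2, joined by a grey line, with genes sorted by their mean within each list. Nearly all of the 63 mitosis genes lie below 0 in both mice, with Ccnb2 the lowest on the mean (-4.41) and Pttg1 the one above 0 (0.84).

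Mitotic promoters are known to share a pair of elements, the CHR, TTTGAA, and the CCAAT box, CCAAT. Searched on both strands, the CHR was found in 40 of 57 promoters of the mitosis list (70.2%), against 17.9% of all 32851 promoters and 13.3% of 45 promoters of the DNA replication list, and CCAAT in 77.2%, against 37.4% of all. The E2F motif GGCGGGAA was found in none of the mitotic promoters and in 13.3% of those of DNA replication, against 2.2% of all. The windows below, from RefSeq promoters of GRCm38.p6, show the CHR match nearest the start in capitals (TTCAAA is the same element on the opposite strand) for 6 mitotic genes whose log2 changes lay between -4.41 and -1.75.
Ccnb2 (chr9:70421518-70421577, minus strand): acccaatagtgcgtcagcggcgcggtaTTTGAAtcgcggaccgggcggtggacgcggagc
Ube2c (chr2:164769873-164769932, plus strand): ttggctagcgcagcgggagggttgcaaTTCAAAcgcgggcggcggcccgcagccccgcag
Cdk1 (chr10:69352895-69352954, minus strand): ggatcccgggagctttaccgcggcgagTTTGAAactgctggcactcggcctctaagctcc
Cdc20 (chr4:118437329-118437388, minus strand): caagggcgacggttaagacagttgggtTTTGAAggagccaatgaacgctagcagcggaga
Plk1 (chr7:122159425-122159484, plus strand): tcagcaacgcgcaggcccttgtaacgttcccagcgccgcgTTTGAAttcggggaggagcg
Top2a (chr11:99024180-99024239, minus strand): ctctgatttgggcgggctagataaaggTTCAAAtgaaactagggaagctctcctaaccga
The windows of Ccnb2 and Cdc20 also hold a CCAAT box, before the CHR in Ccnb2 and after it in Cdc20.

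In the lists of metabolic genes most members were not called, but many shares lay above those over all genes (3.79% higher and 4.49% lower). Among genes with a mean intensity of at least 100 the shares were 6.99% and 7.95%. The list shares were 21.1% and 10.5% for arginine, 16.7% and 16.7% for NAD, and 18.8% and 15.6% for fatty acids. For the TCA cycle they were 6.5% and 6.5%, below those of the brighter genes, and for the respiratory chain 0% and 0%. In arginine handling Slc7a2, a transporter of cationic amino acids, went from 20.0 and 26.2 to 317 and 223, a fold of 11.6 (3.54 ± 0.20). Ass1, which rebuilds arginine from citrulline, went from 483 and 778 to 2453 and 2511 (2.02 ± 0.29). Arg2, the mitochondrial arginase, read 19.1 and 27.1 against 99.5 and 277 (2.87 ± 0.40, adjusted p up to 0.054 with 1 array left out, 2.13 and 3.61 without KO M1 of mouse 2 and mouse 1). Of 19 genes of arginine, nitric oxide and polyamines 4 were called higher and 2 lower (2 higher without KO M0 of mouse 1, and none lower without either KO M0 array), with a median change of -0.01. The other calls, Arg1 at 0.93 and the polyamine enzymes Sms and Sat1 at -0.97 and -0.73, were lost when 1 array was left out (adjusted p up to 0.26, 0.14 and 0.12).

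In NAD and nucleoside metabolism Cd38, an enzyme of the cell surface that consumes NAD, went from 133 and 137 to 3974 and 3676, a fold of 28.3 (4.82 ± 0.24, adjusted p = 4.1e-05), and its relative Bst1 from 235 and 277 to 777 and 653 (1.48 ± 0.14). Upp1, uridine phosphorylase, rose from 33.3 and 20.7 to 161 and 91.3 (2.21 ± 0.29). Nampt, which salvages NAD, changed by 0.37 and Ido1 by 0.27, and neither passed. Of 24 genes 4 rose and 4 fell (none of the falls without either KO M0 array, 1 without either KO M1 array, and 2 with the mouse as a block).

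Of 27 genes of lipid mediators, prostaglandins included, 4 rose and 3 fell. Ptges, the inducible prostaglandin E synthase, went from 96.0 and 91.5 to 832 and 636, a fold of 7.76 (2.96 ± 0.18), and Ptger2, a receptor of prostaglandin E2, from 178 and 228 to 540 and 517 (1.39 ± 0.15). Hpgds, which makes prostaglandin D2, fell from 1200 and 1038 to 356 and 307 (fell by 1.76 ± 0.18). Ptges3, Ptger3, Ptger4 and Ptgds, of the same E and D series, changed by -0.04, 0.04, 0.02 and 0.03 and did not pass. Ptgs2, the cyclooxygenase upstream of both, read 14.1 and 16.6 before and 48.6 and 23.2 after stimulation by its brightest probe set. This probe set did not pass (1.13 ± 0.34), but 1 of the 2 probe sets of Ptgs2 was called higher. Pla2g7, which degrades platelet-activating factor, rose from 2752 and 2663 to 6555 and 6173 (1.23 ± 0.12), and Ephx1, an epoxide hydrolase, fell from 886 and 646 to 76.8 and 141 (fell by 2.86 ± 0.27).

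Genes of iron and oxidant handling moved in both directions. Slc40a1, ferroportin, the exporter of iron, went from 2159 and 1600 to 331 and 187, a fold of 7.47 (fell by 2.90 ± 0.28), while Cp, the ferroxidase ceruloplasmin, went from 374 and 455 to 2273 and 1861 (2.32 ± 0.15). The ferritin genes Fth1 and Ftl1 changed by 0.06 and -0.02 and did not pass. Sod2, the mitochondrial superoxide dismutase, rose from 1664 and 2805 to 10280 and 9574 (2.20 ± 0.25) and Prdx5, a peroxiredoxin, from 3306 and 3512 to 9055 and 8425 (1.36 ± 0.12). The NRF2 targets Nqo1, Gclm and Txnrd1 changed by -0.18, 0.26 and -0.19 and did not pass. Of 37 genes 6 rose and 4 fell (4 and 1 without either KO M0 array, and 2 fell without KO M1 of mouse 2).

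For glucose and fatty acids, Pfkfb3, which makes the activator of phosphofructokinase, went from 297 and 301 to 1880 and 2030, a fold of 6.53 (2.71 ± 0.14), and Hk2, a hexokinase, from 473 and 451 to 1340 and 1220 (1.47 ± 0.14). Among 31 genes of glycolysis and the pentose phosphate pathway 4 rose (2 without KO M0 of mouse 1) and none fell. The enzymes of the main chain, such as Aldoa, Pgk1, Pkm2 and Ldha at 0.31, 0.28, 0.42 and 0.21, did not pass. Acsl1, an acyl-CoA synthetase, went from 464 and 608 to 3849 and 2534 (2.56 ± 0.23) and the lipase Lipe from 176 and 159 to 442 and 339 (1.21 ± 0.16). Fabp4, a fatty acid-binding protein, fell from 1514 and 1753 to 507 and 513 (fell by 1.68 ± 0.13). Irg1, which makes itaconate, was called higher, at 662 and 1697 against 12481 and 6409 (3.08 ± 0.53), but its adjusted p reached 0.096 with 1 array left out, with changes of 2.40 when the mouse 1 array of KO M0 was omitted and 3.76 when that of mouse 2 was. No gene of the respiratory chain and ATP synthase was called among 48, in limma at an adjusted p under 0.05 with all arrays or with any 1 left out, and their changes lay between -0.42 and 0.44 with a median of 0.05. Cox5a, a subunit of cytochrome oxidase, read 7691 and 7863 against 10796 and 9739.

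Cholesterol synthesis and uptake genes were higher in the mean, with a median change of 0.58 and 6 of 24 called, but the mice differed. Fdps, a synthase of the mevalonate pathway, read 505 and 844 against 1873 and 876, so that in mouse 2 it stayed nearly level. The median gap, mouse 1 minus mouse 2, was -0.34 in KO M0 and 0.65 in KO M1. None of these genes was called without the mouse 1 array of KO M0. There were 2 calls without that of mouse 2 and 2 without the mouse 1 array of KO M1, 13 without its mouse 2 array, and 3 with a mouse block. The efflux genes Abca1 and Abcg1 changed by -0.07 and 0.05 and did not pass. In their list of cholesterol efflux and LXR targets 4 of 17 genes were called higher and none lower, and the count varied with the array left out. Scd2 was among the 4 and rose by 1.67.

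In amino acid and stress genes Nupr1, a small stress-induced regulator, went from 290 and 521 to 2377 and 2144 (2.54 ± 0.27) and Psat1, of serine synthesis, fell from 580 and 758 to 173 and 202 (fell by 1.83 ± 0.17). The stress factors Atf4 and Ddit3 changed by 0.72 and 0.58 and did not pass. Of 29 growth factor and TGF-beta genes 6 fell and 2 rose (3 fell without KO M0 of mouse 1). Igf1, insulin-like growth factor, went from 6528 and 6759 to 1917 and 2035, a fold of 3.36 (fell by 1.75 ± 0.13). Fgf13 fell by 2.22 ± 0.17 and Vegfb by 1.02 ± 0.12. The 2 rises were of inhibitors, Smad6, which blocks BMP signals, from 19.8 and 18.2 to 103 and 87.2 (2.32 ± 0.13), and Skil, a repressor of SMAD complexes, from 749 and 967 to 2610 and 2628 (1.62 ± 0.15). Among strongly changed genes outside the lists, Cst7, an inhibitor of cysteine proteases, rose from 196 and 241 to 2719 and 2863 (3.68 ± 0.16), Igh-6, the immunoglobulin mu heavy chain, fell from 421 and 369 to 34 and 27.5 (fell by 3.69 ± 0.15), and Hmga2, a chromatin protein of proliferating cells, from 243 and 202 to 12.4 and 22.3 (fell by 3.73 ± 0.26). For Igh-6 and Hmga2 these are the probe sets with the largest change, and 2 of 10 and 3 of 4 probe sets of the gene fell. The summed intensity of the 10 B cell markers was 767 and 682 before and 691 and 778 after stimulation.

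The KO M1 arrays of the 2 mice parted at interferon-induced genes. Of 36 antiviral interferon-stimulated genes all were higher in KO M1 of mouse 1 than in that of mouse 2, 18 of them by more than 2-fold, with a median gap of 0.99 on the log2 scale. The same gap in KO M0 was 0.05. Of 11 IFN-γ-induced GTPases, which attack vacuoles that hold pathogens, 10 were higher in mouse 1, 9 by more than 2-fold, with a median gap of 1.20 against 0.08 in KO M0. Over 9289 brighter genes the KO M1 arrays were more than 2-fold apart for 118 genes in favour of mouse 1 and 89 in favour of mouse 2, and the KO M0 arrays for 7 and 9. With 1 array per mouse and condition the gap has no test, and a difference between the mice, the cultures, the dose received or the arrays cannot be told apart.

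Cxcl10, the third CXCR3 ligand, had the largest gap. It read 388 and 508 in KO M0, 9024 in KO M1 of mouse 1 and 467 in that of mouse 2. Thus mouse 2 stayed at its unstimulated level, while Cxcl9 rose in both mice. Rsad2, the antiviral enzyme viperin, read 5348 and 5361 against 15452 and 3281, Ifit2 read 2561 and 2403 against 6977 and 1490, and Cmpk2, a mitochondrial nucleotide kinase that neighbours Rsad2, 957 and 1033 against 3053 and 388. In these 3 genes mouse 1 was above both KO M0 values and mouse 2 below both. Ifit1 and Mx1 read 999 and 1006 against 5731 and 1231, and 665 and 606 against 2998 and 584. The GTPases Igtp, Iigp1 and Gbp3 read 3461, 2239 and 1355 in KO M1 of mouse 1 and 1243, 521 and 428 in that of mouse 2, where KO M0 had 1201 and 1119, 422 and 293, and 381 and 493. Unstimulated KO M0 cells were not low in such transcripts: the KO M2 arrays read 369 and 370 for Rsad2 and 74.1 and 72.8 for Ifit2, far below KO M0.

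None of the 11 GTPases and 6 of the 36 antiviral genes passed the test, at median changes of 0.45 and 0.47. Without KO M1 of mouse 2 there were 8 and 26, and without that of mouse 1 there were 0 and 5, with 4 antiviral genes lower. Without either KO M0 array 1 antiviral gene was called, and without either KO M2 array 4. At an unadjusted p under 0.05, 1 GTPase and 18 antiviral genes were higher. Irf7, the master regulator of type I interferon genes, was an even case, rising from 2769 and 2589 to 8659 and 7078 (1.55 ± 0.21, adjusted p = 0.0031). Oasl1 rose from 581 and 607 to 6801 and 2190 (2.70 ± 0.41, adjusted p up to 0.063 with 1 array left out, 1.88 and 3.52 without KO M1 of mouse 1 and mouse 2).

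**Figure D4:**
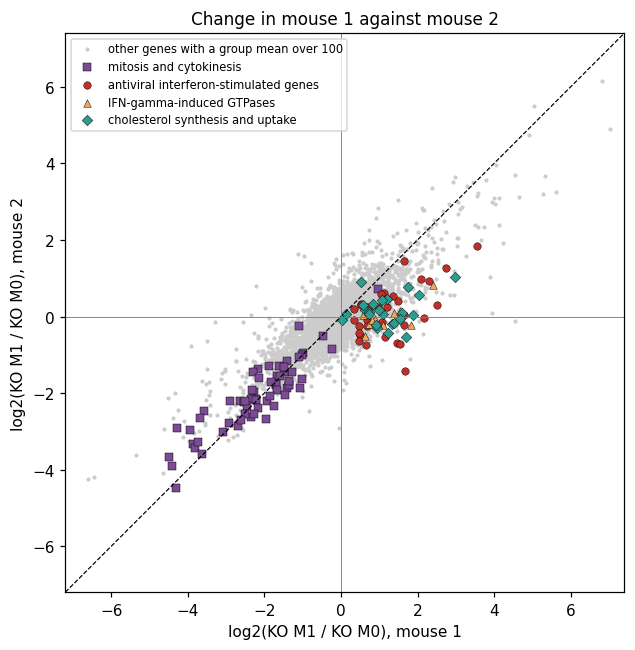
Each point is a gene, with its log2 ratio of KO M1 over KO M0 in mouse 1 on the horizontal axis and in mouse 2 on the vertical axis, and the dashed line marks equal change; grey points are genes with a group mean over 100. Mitosis genes (purple) lie along the line, while the 36 antiviral genes (red) and the 11 GTPases (orange) mostly lie below it, and cholesterol genes are in teal.

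**Figure D5:**
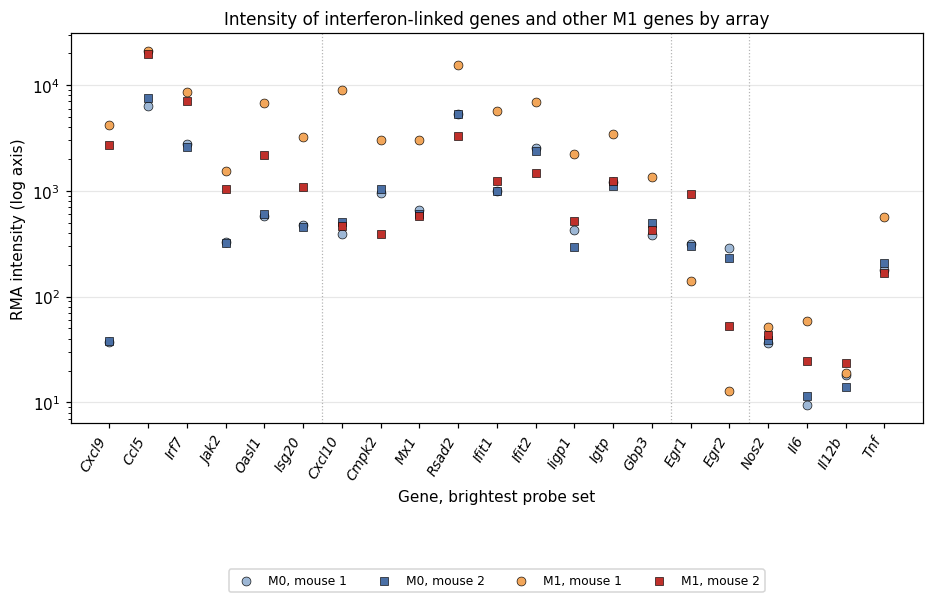
RMA intensity (log axis) of 21 genes on each of the 4 arrays, with KO M0 in blue. KO M1 of mouse 1 is shown as orange circles and KO M1 of mouse 2 as red squares. Dotted lines part genes called higher, interferon-linked genes that were not called, the EGR factors and other genes used as M1 markers. The KO M1 arrays also lay apart for some genes called higher, such as Oasl1 (6801 and 2190). For Cxcl10 the KO M1 arrays read 9024 and 467, and for Rsad2 15452 and 3281.

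The gap was not limited to interferon genes. Egr1, an immediate early factor, read 311 and 301 in KO M0, 142 in KO M1 of mouse 1 and 933 in that of mouse 2, the reverse order. Its relative Egr2 read 289 and 230 against 12.7 and 52.5 (fell by 3.32 ± 0.52, adjusted p up to 0.072 with 1 array left out, with -2.30 without the mouse 1 array of KO M1 and -4.35 without that of mouse 2). Emp1, a membrane protein, read 1514 and 1446 against 75.0 and 365 (-3.16 on the log2 scale, -2.02 and -4.30 without the mouse 1 and the mouse 2 array of KO M1, adjusted p up to 0.11 with 1 array left out). Atp6v0d2, Mmp12 and S100a4, described above, were likewise lower in KO M1 of mouse 1 than in that of mouse 2.

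The promoters of the interferon genes were set beside their values. The core of the interferon-stimulated response element (ISRE), GAAANNGAA, was found in 54.8% of 31 promoters of the antiviral list and in 6 of 8 of the GTPases, against 8.6% of all promoters. The windows show the match nearest the start for Cxcl9, which rose in both mice, and for 3 genes that were more than 2-fold higher in KO M1 of mouse 1 than in that of mouse 2. Every match within a window is in capitals, on either strand, and the matches overlap in Ifit1.
Cxcl9 (chr5:92328222-92328281, minus strand): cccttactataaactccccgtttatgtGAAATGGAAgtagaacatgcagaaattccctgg
Cxcl10 (chr5:92349070-92349129, minus strand): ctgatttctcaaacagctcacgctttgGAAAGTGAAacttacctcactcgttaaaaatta
Ifit1 (chr19:34640778-34640837, plus strand): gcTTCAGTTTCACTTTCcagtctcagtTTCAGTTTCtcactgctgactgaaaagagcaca
Rsad2 (chr12:26456539-26456598, minus strand): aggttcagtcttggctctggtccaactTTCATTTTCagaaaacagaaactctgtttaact
Only promoters with a match can be shown in this way, so the windows do not compare Cxcl9 with the genes on which the mice parted. Whether the core has a part in the gap was not tested.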

How the data were processed

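BMDM of 2 miR-155 KO mice were measured on 6 Affymetrix mouse arrays. The authors normalized them with RMA and deposited 2 tables of intensities, 1 value a probe set on the linear scale, with a largest difference of 5e-06 between them; no version is stated here for RMA. The deposited table also holds the authors' fold and p-value of each comparison and condition means, none of which was used. Of 45101 probe sets 64 controls were left out, 38544 had 1 symbol, 859 several and 5634 none. Of 20967 symbols 16422 are current in RefSeq (GRCm38.p6) and 2026 matched a synonym. Values were turned to log2 and fitted with limma 3.58.1 in R 4.3.3 over all 6 arrays (3 residual and 5.49 prior degrees of freedom), with Benjamini-Hochberg adjustment over 45037 probe sets, two-sided. The fit was tested on simulated data. The number of arrays limits the precision.

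Arrays of one number were read as one mouse, since the methods treat cells of the KO mice in each condition and the titles number the KO samples, but no label states it. The deviations from the group mean of arrays of one mouse had a correlation of -0.162 (M1 with M0), 0.209 (M2 with M0) and -0.215 (M1 with M2). The members and lists were chosen with earlier results of these data known. The genes named were the 25 that rose most and the 25 that fell most, up to 4 members of each list in each direction, defining members that did not pass, the 15 with the largest gap between the KO M1 arrays, and Cxcl9, Il1b, Socs3 and Lcn2. Further list members were named after their values were seen. Promoters, from 250 bases before to 50 after the start, and their sequences are from RefSeq. Some genes are not reported here.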

Additional observations from a re-analysis of the deposited data

How the results depend on the processing

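The numbers of probe sets higher and lower, 450 and 856, were 446 and 847 with the mouse as a replicate block, and 491 and 885 with the pairing crossed, which was added after seeing the data. The block lost 41 of 397 calls of named genes and list members, and reversed none. Leaving out 1 array gave between 300 and 693 higher and between 607 and 1035 lower. The methods' t-test called 243 higher and 709 lower unadjusted, and 0 and 0 after Benjamini-Hochberg. Other scalings, the series matrix values, 4 arrays only, a minimum intensity of 100 and a trended robust fit stayed within 1.5 times, at 388 to 471 higher and 678 to 856 lower. Of the 397 calls, 391 remained after median centring, 392 after repeated quantile normalization, 358 with 4 arrays, 372 in the trended fit and 373 by the mean over probe sets. Without KO M0 of mouse 1 or mouse 2 233 and 258 remained, and without KO M1 of mouse 1 or mouse 2 340 and 356. With 1 array left out the changes lay between -1.36 and 1.62 for Cmpk2, between -0.74 and 1.49 for Ifit2, between -0.71 and 1.53 for Rsad2 and between -1.10 and 1.61 for Egr1. The negative values came without KO M1 replicate 1 (adjusted p = 0.019, 0.024 and 0.026) and, for Egr1, without KO M1 replicate 2 (adjusted p = 0.0049). These genes had passed in no direction with all arrays, and the fits without an array have fewer samples.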
